A study of Mus musculus with 37 samples.

Results

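The insulin-like growth factor (IGF) system was followed through 10 genes: the ligands Igf1 and Igf2, the noncoding RNA H19, the receptor Igf1r, and the binding proteins Igfbp2, Igfbp3, Igfbp4, Igfbp5, Igfbp6 and Igfbp7. They were taken by symbol from the deposited expression table and are 10 of its 51123 genes, read in all 37 libraries. Igfbp1, the remaining classical binding protein, was listed at 0 in every library but 1 control, at 0.0368 TPM (transcript abundance corrected for length), and is not described further.

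IGF1 and IGF2 are small secreted hormones that bind the receptor tyrosine kinase IGF1R and pass a growth and survival signal through insulin receptor substrates, PI3K, AKT and mTOR. Binding proteins hold the ligands in blood and matrix, and proteases such as PAPP-A release them again. In the skeleton, IGF1 is made by bone-forming cells as well as by liver, and bone matrix stores both ligands. Igf2 and H19 are neighbours in 1 imprinted cluster, where Igf2 is read from the paternal and H19 from the maternal chromosome.

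The study asked what loss of Wwox adds to loss of Trp53 on the way to osteosarcoma, in mice in which Cre under the Osx1 promoter acts in mesenchymal bone-forming progenitors and a tdTomato reporter marks the recombined cells. SKO libraries carry the Trp53 deletion, DKO libraries the deletions of both Wwox and Trp53, and control libraries come from wild-type bone marrow. Flushed bone marrow (BM) was grown in culture before RNA was taken, so every library is from cultured cells and not from fresh marrow. Young marrow without a tumor is called yBM, marrow collected when a tumor was found is BMT, and cells of the tumor itself are tumor.

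Set 1 has DKO yBM (6 libraries, 3 from mice of 1.5 months and 3 from mice of 4 months), DKO BMT (3), DKO tumor (3) and control BM (4). Set 2 has DKO yBM, SKO yBM, DKO BMT, SKO BMT, DKO tumor, SKO tumor and control BM, with 3 libraries each. Ages are given for yBM of set 1 only. Each set was compared with its own controls, and the labels do not say that the libraries of a group come from separate animals. The study's methods describe as many mice as set 1 has libraries, but the study also calls BMT cells paired with the tumors, so whether those libraries share mice is not settled, and for set 2 the number of mice is not given in the sources used here. The p-values therefore measure the spread between libraries.

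The labels were checked against the deleted genes first. Trp53 was at 1.35 to 36.1% of the control mean of its set in every knockout library other than the libraries labelled DKO BMT 2 and 3 of set 1, the higher of which reached 72.1%. Wwox went against the label more often. In set 1 it was at 0.5 times the control mean or more in the libraries labelled DKO yBM 2 to 6, DKO tumor 1 and DKO BMT 1, and in set 2 in all 3 libraries labelled DKO tumor (119 to 146% of the control mean). The libraries labelled SKO BMT 2 and 3, which should keep Wwox, had 0.102 and 0.0857 TPM, at or below 2.84% of the control mean. A control library of set 1 itself had only 32.0% of the control mean. The genotype names below are therefore those of the labels. Calls that rest on these libraries are also given without them where the group keeps a library.

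Libraries differed in cell makeup too. A list of 20 leukocyte markers (Ptprc, Cd68, Csf1r, Lyz2 and others) averaged 0.23 to 0.78 on the log2(TPM + 1) scale in 16 of the 18 knockout libraries of set 2, and 4.49 in DKO BMT 2 and 5.40 in SKO BMT 2, against 8.46 to 8.67 in the set 2 controls. In set 1 it averaged 4.14 to 7.98 in DKO yBM, 7.0 to 7.57 in DKO BMT and 0.46 to 6.16 in DKO tumor, against 5.99 to 8.21 in control BM. Ptprc, which encodes the pan-leukocyte marker CD45, was at 0 in at least 1 library of DKO yBM, SKO yBM, DKO BMT, SKO BMT and SKO tumor of set 2. In bulk libraries such as these, fewer cells of a type and less RNA per cell cannot be told apart. Mesenchymal stromal markers averaged 4.65 or more in every library, and the share of mitochondrial transcripts ran between 5.32 and 32.5%.

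H19 and Igf2 also carry microRNAs, and H19 in mouse is the precursor of miR-675, for which Igf1r is a described target in placenta. The mature sequences from RefSeq (GRCm38.p6), with the seed of bases 2 to 8 in capitals, are shown because they tie 3 of the 10 genes together.
mmu-miR-675-5p: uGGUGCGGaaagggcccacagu
mmu-miR-675-3p: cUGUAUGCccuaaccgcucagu
mmu-miR-483-5p: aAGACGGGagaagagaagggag
mmu-miR-483-3p: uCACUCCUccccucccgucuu
The first pair lies in H19 and the second in Igf2, and no seed is shared among the 4. The rows of both microRNA genes were at 0 in the table, which comes from poly-A selected RNA and does not measure mature microRNAs.

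Promoters were read for 9 of the 10 genes, in 13 windows of 250 bases upstream of a RefSeq start (GRCm38.p6). The letters CACGTG, the E-box bound by Myc and other factors, were in 1 of the 13 windows, that of Igfbp2, and in 6.02% of all 32851 promoter windows of that length. TATAAA was in 2 of the 13 windows (Igfbp4 and Igfbp6) and in 12.4% of all windows, and GGGCGG, the GC box, was in 5 of the 13 and in 32.7% of all. Both strands were searched, and the 3 motifs do not overlap in the windows shown. The Igfbp2 window (chr1:72824230-72824479, plus strand) is printed with its E-box and 3 GC boxes in capitals, and the Igf1 window (chr10:87860861-87861110, plus strand), which holds none of the 3 motifs, is printed because all 6 Igf1 calls were kept when any 1 library was left out.
Igfbp2: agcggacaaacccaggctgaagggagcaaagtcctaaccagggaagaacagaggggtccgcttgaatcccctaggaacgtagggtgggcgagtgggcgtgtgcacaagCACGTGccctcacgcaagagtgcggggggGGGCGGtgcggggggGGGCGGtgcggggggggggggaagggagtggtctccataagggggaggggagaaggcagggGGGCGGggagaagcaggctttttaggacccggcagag
Igf1: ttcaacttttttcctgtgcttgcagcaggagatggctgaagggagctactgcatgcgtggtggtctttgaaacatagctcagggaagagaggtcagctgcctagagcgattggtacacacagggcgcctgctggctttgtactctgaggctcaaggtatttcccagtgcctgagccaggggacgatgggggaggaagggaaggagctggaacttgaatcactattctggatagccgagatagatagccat

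Against control BM, every difference of the 10 genes that passed the test was a lower level in the knockout cells. The test was limma on log2(TPM + 1) with Benjamini-Hochberg adjustment over all genes tested, at an adjusted p under 0.05, and "log2 difference" below is the difference in mean log2(TPM + 1), knockout minus control. It gave 21 calls in 9 comparisons: Igf2 in 7, Igf1 in 6, Igfbp5 in 3, Igfbp2 and Igfbp7 in 2 each and Igfbp4 in 1. H19, Igf1r, Igfbp3 and Igfbp6 passed in none. Groups without overlap are described below, and such separation was common. In set 1, 9.64 to 11.1% of all tested genes lay wholly below the controls in the 3 DKO groups, and 3.19 to 7.14% wholly above. In set 2, 13.5 to 20.2% lay wholly below in the 6 knockout groups and 7.46 to 30.9% wholly above.

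In set 1 the knockout cells had 2 of the 10 genes lower in DKO yBM, where 6.14% of all tested genes were lower, 3 in DKO BMT, where 1.4% were, and 1 in DKO tumor, where 2.21% were. In set 2 they had 4 lower in DKO yBM (10.2% of all tested genes), 2 in SKO yBM (7.77%), 2 in DKO BMT (7.79%), 2 in SKO BMT (8.36%), 3 in DKO tumor (9.48%) and 2 in SKO tumor (9.57%). None of the 10 was called higher, where 1.67%, 0.958% and 1.19% of all tested genes were higher in DKO yBM, BMT and tumor of set 1. The shares of all tested genes called higher in set 2 were 9.34% in DKO yBM, 5.78% in SKO yBM, 4.22% in DKO BMT, 5% in SKO BMT, 7.71% in DKO tumor and 2.01% in SKO tumor. The median log2 difference of the 10 genes was between -1.35 (DKO BMT) and -1.10 (DKO yBM) in set 1, against -0.22 to -0.06 for all tested genes. In set 2 it was between -3.22 (DKO yBM) and -1.14 (SKO yBM), against -0.11 to 0.24. The direction of calls over all genes depended on the scaling: 21.4 to 40.7% of the set 1 calls were higher in knockout cells, and 59.8 to 62.0% with median-ratio scaling and 61.7 to 67.3% with quantile normalization. In set 2 the same shares were 17.4 to 47.9%, 32.4 to 41.7% and 45.8 to 56.3%. Median-ratio scaling shifted the median of all genes in set 1 DKO yBM to -0.00, against -0.22 without it, and in SKO yBM of set 2 to 0.01, against 0.24.

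**Figure D1:**
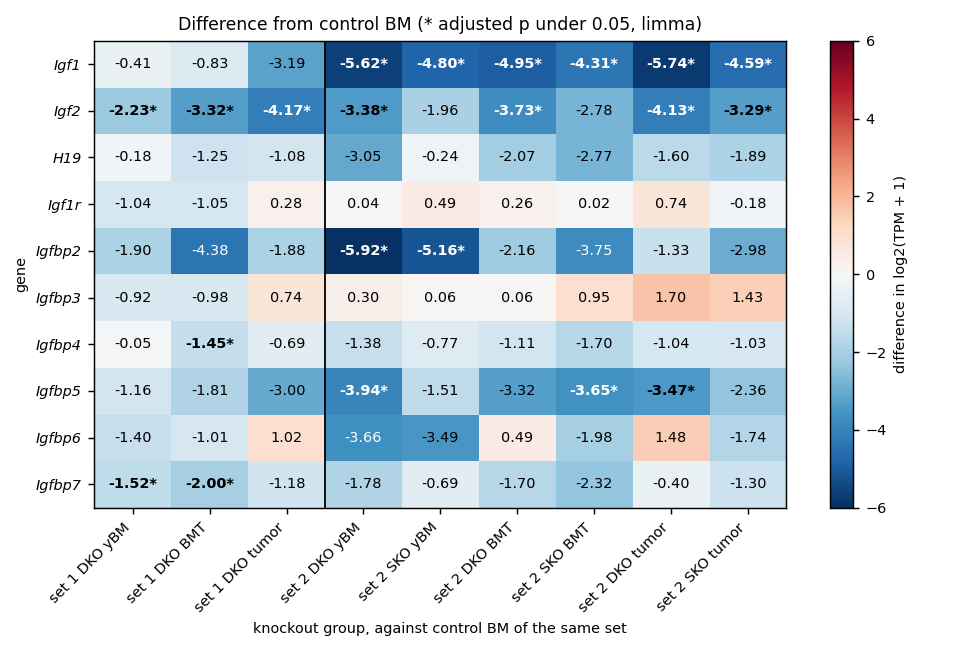
Difference in mean log2(TPM + 1) from control BM of the same set for the 10 genes (vertical) in the 9 knockout groups (horizontal, set 1 left of the black line), with the colour scale and the printed number giving the same value and an asterisk marking adjusted p under 0.05 in limma. The asterisks are all on negative values, and the Igf1 values run between -5.74 and -4.31 in set 2 and between -3.19 and -0.41 in set 1.

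Igf1 was the member called lower in all 6 comparisons of set 2 with control BM. It was at 8.99, 9.22 and 1.50 TPM in DKO yBM, 5.69, 15.0 and 12.1 TPM in SKO yBM, 5.99, 94.7 and 0.545 TPM in DKO BMT, and 21, 23.7 and 6.08 TPM in SKO BMT. In the tumor cells it was at 5.21, 3.27 and 6.44 TPM in the libraries labelled DKO and 7.92, 11.5 and 18.4 TPM in SKO, against 380, 286 and 276 TPM in control BM. All 18 knockout libraries were below all 3 controls, and 1 of them, DKO BMT 2, stood above the other 17.

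The log2 difference of Igf1 was -5.62 (SE 0.98, adjusted p = 0.000503, limma) in DKO yBM, -4.80 (SE 0.98, adjusted p = 0.00252) in SKO yBM, -4.95 (SE 0.98, adjusted p = 0.00204) in DKO BMT and -4.31 (SE 0.98, adjusted p = 0.0065) in SKO BMT. For the tumor cells it was -5.74 (SE 0.98, adjusted p = 0.00038) in DKO and -4.59 (SE 0.98, adjusted p = 0.00358) in SKO. These 6 calls were kept when any 1 library was left out, with adjusted p between 3.2e-06 and 0.0373 in limma. The SKO BMT call was lost (log2 difference -3.83, adjusted p = 0.124, limma) when both libraries labelled SKO BMT with low Wwox were left out, which leaves 1 library in the group. All 3 libraries behind the DKO tumor value had Wwox at the control level.

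Leukocyte markers moved with Igf1 in set 2. Of the 20 markers, 20 were called lower against control BM in DKO yBM, SKO yBM, DKO BMT, DKO tumor and SKO tumor, and 19 in SKO BMT. With the mean leukocyte marker level as a covariate the log2 differences of Igf1 were -0.58 in DKO yBM, 0.25 in SKO yBM, -0.68 in DKO BMT, -0.31 in SKO BMT, -0.73 in DKO tumor and 0.42 in SKO tumor, with adjusted p of 0.87 or more in limma. No set 2 call of the other members was kept under that covariate either. The marker level separates all set 2 controls from all set 2 knockout libraries, so this fit has little left to compare at equal marker levels. The part of leukocyte content in the set 2 differences was not tested.

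In set 1, Igf1 was at 410, 297, 9.02, 20.2, 354 and 278 TPM in DKO yBM, 165, 116 and 33.2 TPM in DKO BMT, and 44.2, 29.7 and 2.55 TPM in DKO tumor, against 77.3, 55.5, 362 and 362 TPM in control BM. DKO yBM and DKO BMT overlapped the controls, and the tumor libraries lay below them. DKO yBM 3 and 4, with the lowest Igf1 of their group, also had its lowest leukocyte marker levels, 4.14 and 6.02, and control BM 1 and 2 had the lower marker levels of the controls, 5.99 and 6.14. DKO tumor 2 had 29.7 TPM of Igf1 with the markers near 0, at 0.46. No log2 difference of Igf1 passed in set 1: they were -0.41 in DKO yBM, -0.83 in DKO BMT and -3.19 in DKO tumor.

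**Figure D2:**
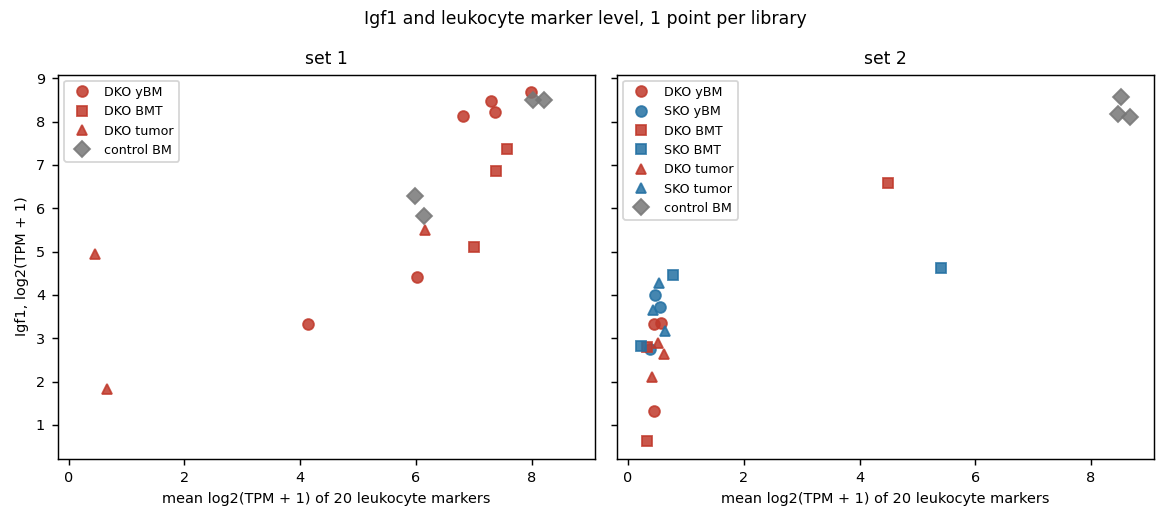
Igf1, as log2(TPM + 1), against the mean log2(TPM + 1) of 20 leukocyte markers, with 1 point per library and set 1 and set 2 in separate panels (red DKO, blue SKO, grey control BM, shape by tissue). In set 2 the 3 controls lie at marker levels of 8.46 to 8.67, and 16 of the 18 knockout libraries at 0.23 to 0.78.

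The difference of Igf1 in DKO yBM was compared between the sets in a joint fit. The set 1 log2 difference minus that of set 2 was 5.21 for DKO yBM (95% interval 1.94 to 8.48, adjusted p = 0.0551, limma), which missed the threshold, where 4.82% of all tested genes passed. It passed, with adjusted p of 0.0114 to 0.0447 and differences of 5.62 to 5.92, without DKO yBM 3, DKO yBM 4, control BM 3 or control BM 4 of set 1. It also passed with median-ratio scaling (5.63, adjusted p = 0.0343) and with quantile normalization (5.25, adjusted p = 0.0401). Without the DKO libraries of high Wwox the difference was 7.02, but that leaves DKO yBM 1 as the only library of its group in set 1. DKO yBM 1 had the highest Igf1 (410 TPM) and the highest leukocyte marker level (7.98) of that group. For DKO BMT the difference was 4.11 (adjusted p = 0.258, limma), and 5.73 (adjusted p = 0.0393) without DKO BMT 2 of set 2. Of the 10 genes, 0 passed for yBM, 0 for BMT, where 3.71% of all genes did, and 0 for tumor, where 0.351% did. At an unadjusted p under 0.05 in limma, 1, 1 and 0 of the 10 genes passed, in the same order, beside 20.8%, 13.4% and 8.22% of all genes, and in the first 2 the gene was Igf1.

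Igf2, the growth factor best known from fetal tissue, was lower in both sets. In set 1 it was at 9.09, 68.1, 13.2, 5.07, 19.6 and 37.2 TPM in DKO yBM, 9.82, 4.63 and 10.7 TPM in DKO BMT, and 10.9, 1.96 and 2.45 TPM in DKO tumor, against 54.5, 56.5, 176 and 110 TPM in control BM. DKO BMT and DKO tumor lay below all 4 controls, while DKO yBM 2 reached into the control range. The log2 difference was -2.23 (SE 0.62, adjusted p = 0.0418, limma) in DKO yBM, -3.32 (SE 0.73, adjusted p = 0.0351) in DKO BMT and -4.17 (SE 0.73, adjusted p = 0.0181) in DKO tumor.

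The set 1 calls of Igf2 were close to the threshold. In DKO yBM the call was kept without DKO yBM 2 and lost without any other library, with log2 differences of -2.45 to -1.90 and adjusted p of 0.052 to 0.107 in limma. In DKO BMT it was kept without control BM 1 or 2 and lost without control BM 3 or 4 or any DKO BMT library (adjusted p 0.0545 to 0.09, limma), and in DKO tumor it was lost without DKO tumor 3 (adjusted p = 0.0822) or control BM 4 (adjusted p = 0.0668). Without the libraries labelled DKO that had high Wwox, the log2 difference was -3.14 (adjusted p = 0.374, limma) in DKO yBM and -3.46 (adjusted p = 0.0535) in DKO BMT, while the DKO tumor call was kept (-4.80, adjusted p = 0.00587). The DKO tumor call was lost with the leukocyte covariate (-2.55, adjusted p = 0.23, limma), and there 12 of the 20 leukocyte markers were called lower, with 0 of 20 in DKO yBM and DKO BMT.

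In set 2, Igf2 was at 2.33, 7.15 and 0.597 TPM in DKO yBM, 6.79, 19 and 4.35 TPM in SKO yBM, 0.673, 10.3 and 0.126 TPM in DKO BMT, and 1.26, 11.4 and 4.40 TPM in SKO BMT. The tumor cells had 3.27, 0.607 and 0.340 TPM in DKO and 3.10, 6.02 and 0.848 TPM in SKO, against 8.42, 80.3 and 63.6 TPM in control BM. One control, control BM 1, was low and lay inside the range of SKO yBM, DKO BMT and SKO BMT, while DKO yBM and both tumor groups were below it.

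The log2 difference of Igf2 in set 2 was -4.13 (SE 0.96, adjusted p = 0.00568, limma) in DKO tumor, -3.73 (SE 0.96, adjusted p = 0.0149) in DKO BMT, -3.38 (SE 0.96, adjusted p = 0.0189) in DKO yBM and -3.29 (SE 0.96, adjusted p = 0.0304) in SKO tumor. In SKO BMT it was -2.78 and in SKO yBM -1.96, and neither passed. The DKO tumor call was kept when any 1 library was left out. The DKO BMT, DKO yBM and SKO tumor calls were each lost without control BM 2 or 3 or without library 1 or 3 of the knockout group, with adjusted p between 0.0586 and 0.15 in limma and log2 differences between -3.37 and -2.71.

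H19 passed the test in no comparison. In set 1 it was at 28.5, 37.5, 32.8, 21.6, 9.28 and 11.2 TPM in DKO yBM, 5.34, 10.3 and 14.7 TPM in DKO BMT, and 82.3, 10.8 and 0.614 TPM in DKO tumor, against 21.8, 83.5, 7.17 and 22.5 TPM in control BM. All 3 DKO groups overlapped the controls. In set 2 it was at 0.949, 3.30 and 0 TPM in DKO yBM, 29.3, 11 and 6.92 TPM in SKO yBM, 1.23, 28.0 and 0 TPM in DKO BMT, and 0.509, 7.76 and 0.143 TPM in SKO BMT. The tumor cells had 37.9, 0.506 and 1.96 TPM in DKO and 0.488, 0.592 and 39.0 TPM in SKO, against 10.6, 11.3 and 32.5 TPM in control BM.

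DKO yBM and SKO BMT were below all 3 set 2 controls for H19, and in each tumor group 1 library stood above them and the other 2 were below 2 TPM. The lowest unadjusted p among the 9 comparisons was 0.0411, for the log2 difference of -3.05 in DKO yBM (adjusted p = 0.135, limma). That difference passed (adjusted p = 0.00892) when only DKO yBM and control BM were fitted.

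Igf1r, the receptor through which both ligands signal, had no difference from control BM that passed the test. In set 1 it was at 5.44, 9.72, 8.57, 8.47, 2.95 and 4.64 TPM in DKO yBM, 5.91, 5.18 and 7.57 TPM in DKO BMT, and 26.2, 18.5 and 9.84 TPM in DKO tumor, against 23.5, 21.6, 7.38 and 9.28 TPM in control BM. The tumor libraries were above all DKO yBM and all DKO BMT libraries, as for 4.05% and 5.32% of all tested genes. The DKO tumor minus DKO yBM log2 difference was 1.31 (SE 0.41, adjusted p = 0.184, limma), and DKO tumor minus DKO BMT was 1.32 (SE 0.47, adjusted p = 0.224). In set 2 the 21 libraries lay between 5.29 and 18.9 TPM with 2 exceptions, SKO BMT 3 at 4.58 TPM and SKO tumor 2 at 1.66 TPM. The 3 DKO tumor libraries, at 18.9, 14.8 and 12 TPM, were above the set 2 controls at 5.29, 10.2 and 11.5 TPM, with a log2 difference of 0.74 that did not pass.

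**Figure D3:**
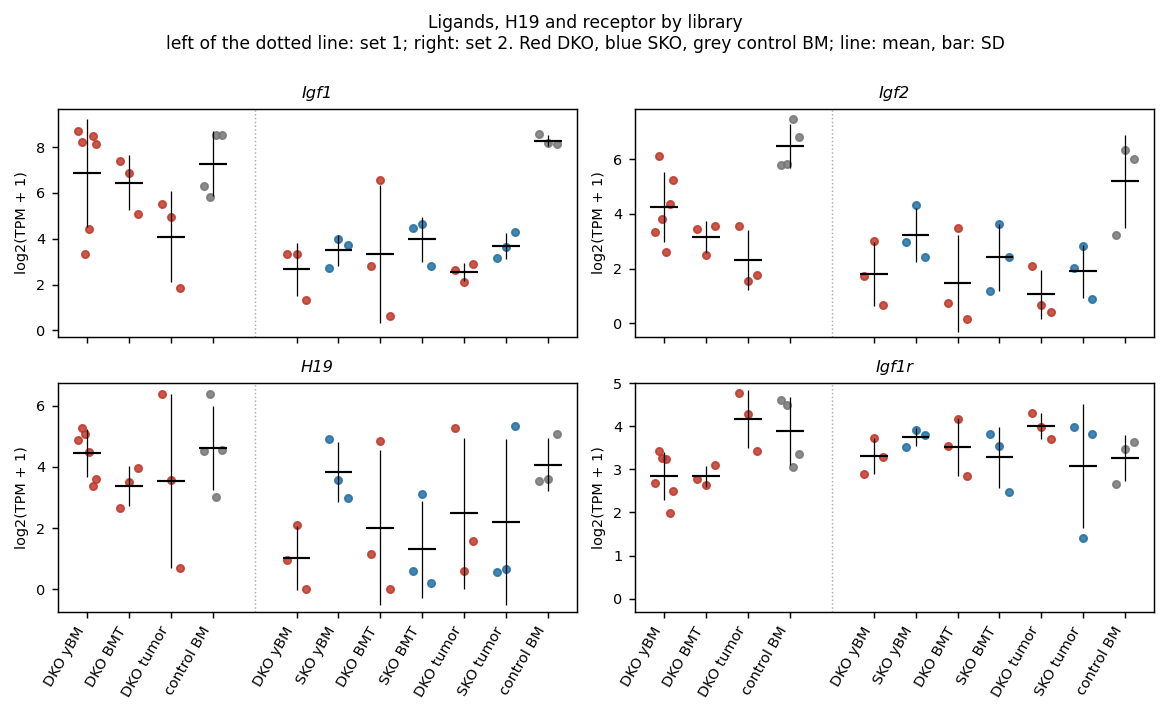
Levels of Igf1, Igf2, H19 and Igf1r as log2(TPM + 1) in each library (points), with the group mean (line) and SD (vertical bar), set 1 left of the dotted line and set 2 right of it, red for DKO, blue for SKO and grey for control BM. The mean of Igf1 and of Igf2 is higher in control BM than in any knockout group of its set, while H19 spreads between 0 and 39.0 TPM among the knockout libraries of set 2.

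Igfbp4 was the most abundant member in 33 of the 37 libraries (43.4 to 2395 TPM). Igfbp7 led in 3 libraries and Igf1 in 1. IGFBP4 restrains IGF signalling until PAPP-A cleaves it. In set 1 Igfbp4 was at 499, 705 and 876 TPM in DKO BMT, against 1655 to 1935 TPM in control BM, with no overlap, and the log2 difference was -1.45 (SE 0.36, adjusted p = 0.0484, limma). That call was lost without any 1 of the 7 libraries, with log2 differences of -1.64 to -1.23 and adjusted p of 0.0727 to 0.125. In DKO yBM the 6 libraries had between 1044 and 2389 TPM and in DKO tumor the 3 had 2395, 758 and 822 TPM, both overlapping the controls. In DKO tumor the log2 difference was -0.69, and -1.22 (adjusted p = 0.0315, limma) without DKO tumor 1, a library in which Wwox went against the label.

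Igfbp7, a related protein with weak affinity for IGFs, was the other set 1 binding protein that passed. It was at 149, 241, 200, 206, 153 and 246 TPM in DKO yBM and 94.3, 222 and 131 TPM in DKO BMT, against 817, 705, 355 and 488 TPM in control BM, and neither group reached the lowest control. The log2 difference was -1.52 (SE 0.38, adjusted p = 0.0298, limma) in DKO yBM and -2.0 (SE 0.45, adjusted p = 0.0357) in DKO BMT. The yBM call was lost without DKO yBM 1, 3 or 5 or control BM 1, 2 or 4 (log2 differences -1.59 to -1.34, adjusted p 0.0502 to 0.0766), and the BMT call without library 1 or 3 of DKO BMT or any control other than control BM 3 (log2 differences -2.07 to -1.72, adjusted p 0.069 to 0.106). Without the DKO libraries of high Wwox, the log2 differences were -1.91 (adjusted p = 0.47) in DKO yBM and -1.72 (adjusted p = 0.253) in DKO BMT. DKO tumor, at 219, 579 and 119 TPM, overlapped the controls.

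The 3 calls in DKO BMT of set 1 stood beside shifts in other marker lists. Of 6 smooth muscle markers, 2 were called lower there, and their mean log2(TPM + 1) was 5.60 to 6.03 in DKO BMT, against 6.64 to 8.75 in control BM. Of 12 mesenchymal stromal markers, 2 were called lower, with means of 5.63 to 6.01, against 5.82 to 7.20. No osteoclast marker was called, and their mean was 1.68 to 6.28 in DKO BMT, against 1.32 to 2.16. The part of these cell types in the lower Igf2, Igfbp4 and Igfbp7 was not tested. Without the libraries labelled DKO BMT that had high Trp53, which leaves 1 library, none of the 3 passed: the log2 difference was -3.04 for Igf2 (adjusted p = 0.193, limma), -1.88 for Igfbp4 (adjusted p = 0.0942) and -2.56 for Igfbp7 (adjusted p = 0.0665). Without the DKO libraries of high Wwox the Igfbp4 call was lost too (-1.23, adjusted p = 0.069).

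In set 2 Igfbp7 was at 89.4, 155 and 139 TPM in DKO yBM, against 253, 558 and 563 TPM in control BM, with a log2 difference of -1.78 that did not pass. The other set 2 groups ran between 21.3 and 524 TPM. SKO BMT, at 210, 135 and 21.3 TPM, was the only one of them without overlap with the controls, and its log2 difference of -2.32 passed with median-ratio scaling (-2.48, adjusted p = 0.0278, limma) and quantile normalization (-2.41, adjusted p = 0.0388).

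Igfbp2 was lower in young marrow of set 2, and its log2 difference in DKO yBM was the largest in size among the calls of the 10 genes. It was at 0.447, 5.34 and 0.206 TPM in DKO yBM and 7.54, 2.64 and 0.729 TPM in SKO yBM, against 108, 156 and 142 TPM in control BM. Both groups were far below the controls, which lay close together. The log2 difference was -5.92 (SE 1.68, adjusted p = 0.0192, limma) in DKO yBM and -5.16 (SE 1.68, adjusted p = 0.0486) in SKO yBM. The DKO call was lost without control BM 1 or 2 or DKO yBM 1 or 3 (log2 differences -6.07 to -5.47, adjusted p 0.0528 to 0.0705), and the SKO call without any 1 of the 6 libraries (log2 differences -5.75 to -4.59, adjusted p 0.0652 to 0.176).

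The other groups of set 2 spread widely for Igfbp2. DKO BMT had 22.8, 415 and 1.78 TPM, SKO BMT 6.52, 30.5 and 3.20 TPM, DKO tumor 69.3, 21.7 and 94.7 TPM and SKO tumor 3.30, 1.41 and 481 TPM. SKO BMT and DKO tumor were below all 3 controls without passing the test, while DKO BMT 2 and SKO tumor 3 stood above them. Without SKO tumor 3 the log2 difference of SKO tumor was -5.39 (adjusted p = 0.016, limma), against -2.98 with it. In set 1, Igfbp2 was at 36.6, 144, 12.9, 22.4, 11.1 and 102 TPM in DKO yBM, 6.17, 9.33 and 2.70 TPM in DKO BMT, and 78.2, 415 and 0.502 TPM in DKO tumor, against 525, 1395, 30.2 and 13.4 TPM in control BM. DKO BMT was below the lowest control (log2 difference -4.38), the controls themselves ran from 13.4 to 1395 TPM, and no set 1 difference passed.

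Igfbp5, which binds bone mineral and matrix, was lower in 3 groups of set 2. It was at 4.02, 9.69 and 0.379 TPM in DKO yBM, 1.46, 29.5 and 0.781 TPM in SKO BMT, and 10.3, 2.5 and 3.98 TPM in DKO tumor, against 34.9, 140 and 51.7 TPM in control BM. None of these 9 libraries reached the lowest control. The log2 difference was -3.94 (SE 1.14, adjusted p = 0.022, limma) in DKO yBM, -3.65 (SE 1.14, adjusted p = 0.0417) in SKO BMT and -3.47 (SE 1.14, adjusted p = 0.0449) in DKO tumor. DKO BMT, at 13.8, 10.5 and 0.578 TPM, and SKO tumor, at 19.2, 2.27 and 28.8 TPM, were also below the controls without passing, and SKO yBM, at 55.4, 23.9 and 7.26 TPM, overlapped them.

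Each of these Igfbp5 calls was lost without at least 1 library, while the log2 difference stayed at -2.89 or lower. The DKO yBM call was lost without control BM 2 or DKO yBM 1 or 3 (log2 differences -4.07 to -3.14, adjusted p 0.0548 to 0.108, limma), the DKO tumor call without any 1 of the 6 libraries (-3.95 to -2.90, adjusted p 0.0538 to 0.162), and the SKO BMT call without any control or SKO BMT 1 or 3 (-4.08 to -2.89, adjusted p 0.0693 to 0.148). The SKO BMT call was also lost without both libraries of low Wwox (-4.71, adjusted p = 0.0641). In set 1 Igfbp5 was at 16 to 80.8 TPM in DKO yBM (median 38.5), 11.4, 36.1 and 37.7 TPM in DKO BMT, and 28.2, 7.36 and 5.04 TPM in DKO tumor, against 185, 14.4, 104 and 229 TPM in control BM. Control BM 2 was the low one, and without it the log2 difference of DKO tumor was -3.86 (adjusted p = 0.0124, limma), against -3.0 with all libraries, which did not pass.

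Igfbp6, which prefers IGF2 over IGF1, lay above the controls in some knockout groups of set 2 and below them in others. It was at 2.02, 5.45 and 1.37 TPM in DKO yBM, 6.90, 2.49 and 1.36 TPM in SKO yBM, 80.0, 84.5 and 35.8 TPM in DKO BMT, and 54.2, 13.1 and 0.944 TPM in SKO BMT. The tumor cells had 143, 73.7 and 188 TPM in DKO and 1.90, 2.32 and 256 TPM in SKO, against 44.4, 43.1 and 45.4 TPM in control BM. DKO tumor lay above the controls and both yBM groups below them, and none of these differences passed: the log2 difference was 1.48 in DKO tumor, -3.66 (adjusted p = 0.0536, limma) in DKO yBM and -3.49 in SKO yBM. The DKO yBM and SKO yBM differences passed with median-ratio scaling (adjusted p = 0.0307 and 0.0431) and with quantile normalization (adjusted p = 0.0348 and 0.0407).

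The DKO tumor minus DKO yBM log2 difference of Igfbp6 was 5.14 (SE 1.29, unadjusted p = 0.000847, adjusted p = 0.278, limma), with all 3 tumor libraries above all 3 yBM libraries, as for 7.73% of all tested genes. Fitted with those groups alone it passed (adjusted p = 0.00193). DKO tumor minus SKO tumor was 3.23 (adjusted p = 0.585). Without SKO tumor 3, whose 256 TPM went against the difference, it was 5.35 (adjusted p = 0.0326), with SKO tumor 1 and 2 left. Of 6 fits with 1 library left out, 5 called no member in this comparison. All 3 DKO tumor libraries had Wwox at 119 to 146% of the control mean, against their label. In set 1, Igfbp6 was at 1.50 to 14.5 TPM in DKO yBM (median 4.06), 4.60, 5.38 and 8.91 TPM in DKO BMT, and 75.8, 146 and 1.13 TPM in DKO tumor, against 45.8, 64.9, 0.561 and 7.48 TPM in control BM.

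Igfbp3, the main carrier of IGFs in blood, was the least abundant member, at 1 TPM or more in 22 of 37 libraries. In set 2 it was at 20.0, 1.61 and 3.81 TPM in DKO tumor and 4.62, 1.31 and 3.22 TPM in SKO BMT, against 1.00, 0.946 and 0.971 TPM in control BM, so that both groups were above the controls. SKO tumor had 1.01, 0.179 and 61.7 TPM. The largest log2 difference from control BM was 1.70 in DKO tumor (adjusted p = 0.309, limma). In set 1 it was at 17.8, 30.0 and 0.429 TPM in DKO tumor and 10.0, 0.339 and 0.576 TPM in DKO BMT, against 1.75, 63.0, 0.365 and 3.15 TPM in control BM. DKO yBM of set 1 had 0.407 to 1.79 TPM in 5 libraries and 18.9 TPM in DKO yBM 4.

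**Figure D4:**
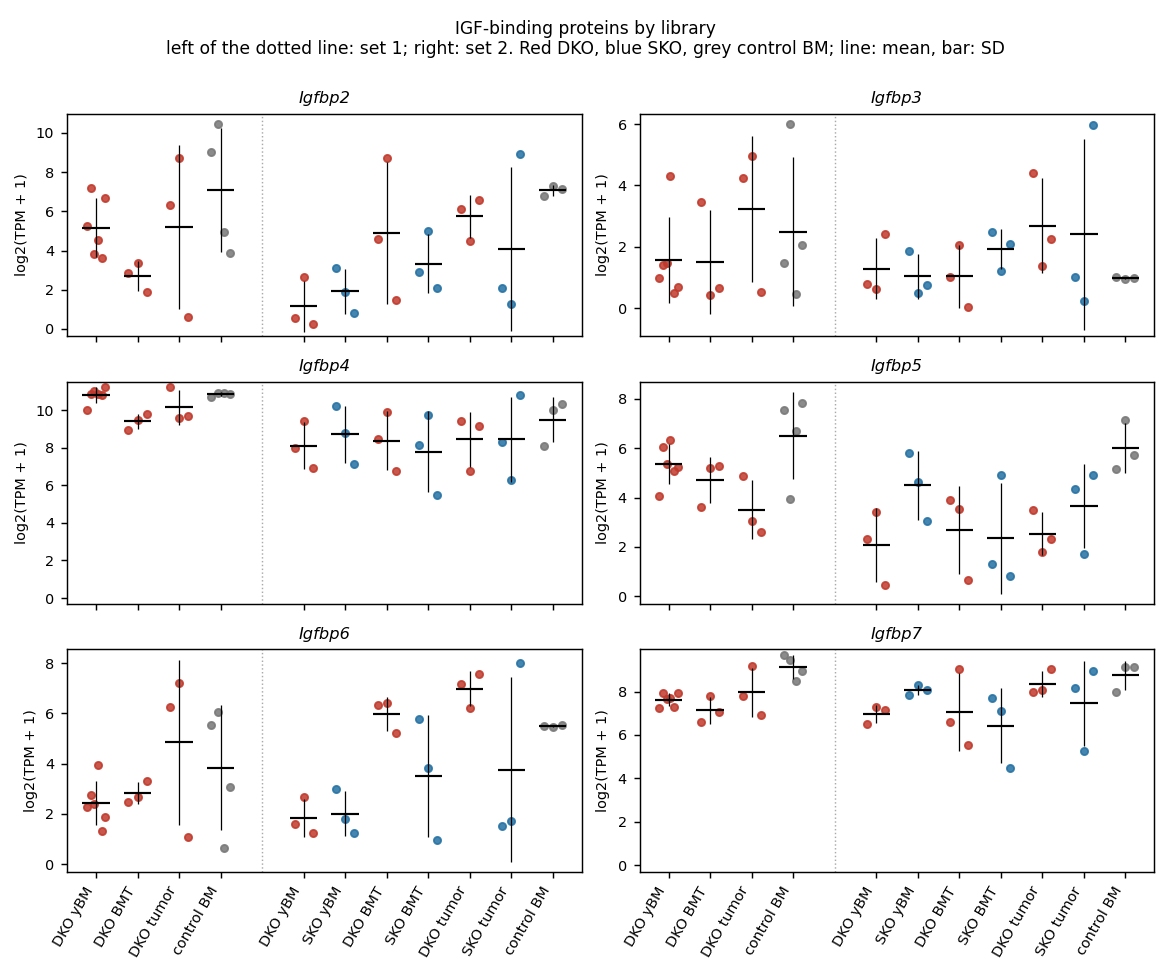
Levels of Igfbp2 to Igfbp7 as log2(TPM + 1) in each library (points), with the group mean (line) and SD (vertical bar), laid out and coloured like the plot of the ligands. Igfbp2 and Igfbp6 are below the set 2 controls in every DKO yBM and SKO yBM library of that set, and Igfbp4 is the highest of the 6 in most libraries.

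Comparisons among the knockout groups gave no call for the 10 genes. DKO minus SKO gave 0 of 10 in yBM (0.0207% of all genes called), 0 of 10 in BMT (0%) and 0 of 10 in tumor (0%), with 1, 0 and 1 members at an unadjusted p under 0.05 in limma and 2.98%, 2.61% and 8.39% of all genes. In yBM that member was Igfbp5, with a log2 difference of -2.43 (95% interval -4.83 to -0.03), and in tumor it was Igfbp6. The tumor comparison and most of the BMT comparison did not set low against high Wwox. All 3 DKO tumor libraries had Wwox at 119 to 146% of the control mean, and SKO BMT 2 and 3 had 2.84 and 2.39%. What Wwox loss adds in tumor and BMT was therefore not tested. A fit of the BMT groups with the library number as a block, which no label says marks a pair, also called 0 members.

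Tumor against cultured marrow (BMT or yBM) gave 0 of 10 in set 1 DKO tumor minus DKO BMT (0.257% of all genes called) and 0 of 10 in DKO tumor minus DKO yBM (0.132%). In set 2 it gave 0 of 10 in DKO tumor minus DKO BMT (0.083%), DKO tumor minus DKO yBM (0.104%), SKO tumor minus SKO BMT (0.083%) and SKO tumor minus SKO yBM (0%). At an unadjusted p under 0.05 in limma, 1 and 4 members passed in set 1, beside 12.9% and 15.6% of all genes. In set 2, 0, 2, 0 and 0 members did, in the order above, beside 3.91%, 5.06%, 11.4% and 6.63% of all genes. The 4 in DKO tumor minus DKO yBM of set 1 were Igf1 (log2 difference -2.78), Igf2 (-1.94), Igfbp5 (-1.85) and Igf1r (1.31), and the 2 in set 2 were Igfbp6 (5.14) and Igfbp2 (4.58). DKO yBM from mice of 4 months minus those of 1.5 months gave 0 of 10 calls (0.00694% of all genes) and 0 at an unadjusted p under 0.05. In set 1, Igfbp4 passed in DKO tumor minus DKO yBM (-1.17, adjusted p = 0.0428, limma) without DKO tumor 1.

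BMT and tumor cells of set 1 may come from the same mice, but no label says that equal numbers mark 1 mouse, and deviations of same-numbered libraries had r = 0.066, 0.285 and -0.091. By number, Igf1 was lower in tumor in 3 of 3 (44.2, 29.7 and 2.55 TPM, against 165, 116 and 33.2 TPM in DKO BMT) and Igf1r higher in 3 of 3 (26.2, 18.5 and 9.84 TPM, against 5.91, 5.18 and 7.57 TPM). For Igf1r this holds under any numbering, since every tumor library was above every DKO BMT library, as for 5.32% of all tested genes. The share of all genes with 1 direction in 3 of 3 was not counted. The number was also used as a block in the fit of all set 1 libraries. There the log2 differences of DKO tumor minus DKO BMT were -2.36 for Igf1 (adjusted p = 0.621, limma) and 1.32 for Igf1r (adjusted p = 0.329), and 0 members passed. DKO yBM and control BM libraries of the same number shared those blocks, so a pairing of tumor and BMT alone was not tested.

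Among 37 other genes of the IGF pathway, 35 were tested in set 1 and 34 in set 2. The growth hormone receptor Ghr, which drives Igf1 in liver, was lower in 2 groups of set 1: it ranged from 11.7 to 22.3 TPM in DKO yBM and was 10.6, 11.8 and 12.9 TPM in DKO BMT, against 32.1, 29.5, 38.6 and 52.2 TPM in control BM, with log2 differences of -1.25 (adjusted p = 0.0171, limma) and -1.58 (adjusted p = 0.0182). The yBM call of Ghr was lost without control BM 4, and the BMT call without control BM 4, DKO BMT 1 or DKO BMT 3. DKO yBM of set 1 also had lower Foxo1 (-1.17, adjusted p = 0.0138), Foxo3 (-1.52, adjusted p = 0.0141) and Insr (-1.04, adjusted p = 0.0279), the first 2 being transcription factors held out of the nucleus by AKT and the last the insulin receptor, so that 0 pathway genes were higher and 4 lower. DKO BMT had 0 higher and 2 lower (Ghr and Stc1), and DKO tumor 0 and 0, with 8 of the 35 at an unadjusted p under 0.05 in limma, beside 22.6% of all genes. Of all tested genes, 1.67% were called higher and 6.14% lower in DKO yBM, 0.958% and 1.4% in DKO BMT, and 1.19% and 2.21% in DKO tumor.

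In set 2, the stanniocalcin Stc1, an inhibitor of PAPP-A, was lower in DKO yBM, SKO yBM and DKO BMT. In DKO BMT its level was 0.532, 0.692 and 0.186 TPM, against 3.44, 8.05 and 9.13 TPM in control BM, and the log2 difference of -2.35 (adjusted p = 0.00484, limma) was kept when any 1 library was left out. Igf2bp1, an RNA-binding protein named for its binding to Igf2 mRNA and best known from fetal tissue, was higher in the same 3 groups. It was at 14.7, 20.0 and 50.2 TPM in DKO yBM, 12.9, 6.94 and 24.3 TPM in SKO yBM and 13.6, 2.45 and 44.0 TPM in DKO BMT, against 0.0244, 0.658 and 1.44 TPM in control BM.

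All 9 of these Igf2bp1 values were above all 3 controls. Of all tested genes, 24.9% lay wholly above the controls in DKO yBM, 30.9% in SKO yBM and 15.9% in DKO BMT. The log2 difference was 4.00 (adjusted p = 0.00442, limma) in DKO yBM, which was kept when any 1 library was left out, 3.13 (adjusted p = 0.0265) in SKO yBM and 3.03 (adjusted p = 0.0338) in DKO BMT. With the leukocyte covariate all 3 turned negative, to -0.086, -0.96 and -0.43, and none passed. The tumor groups, at 5.51, 17.5 and 5.52 TPM in DKO and 2.10, 1.2 and 2.14 TPM in SKO, had no call against control BM. DKO tumor was also above all 3 controls, as for 21.8% of all tested genes, and SKO tumor overlapped them.

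The other pathway calls of set 2 were Mtor higher in DKO yBM (1.42) and SKO BMT (1.16), Irs1 higher in SKO yBM (2.71), Stc2 higher in SKO BMT (2.04), Htra1, a protease that cleaves binding proteins, higher in DKO BMT (2.38), Akt2 lower in SKO tumor (-1.35) and Pik3r1 lower in DKO tumor (-1.40), all log2 differences. That made 2 higher and 1 lower of 34 in DKO yBM, in SKO yBM and in DKO BMT, 2 and 0 in SKO BMT, and 0 and 1 in each tumor group. Of all tested genes, 9.34% were higher and 10.2% lower in DKO yBM, 5.78% and 7.77% in SKO yBM, and 4.22% and 7.79% in DKO BMT. The same shares were 5% and 8.36% in SKO BMT, 7.71% and 9.48% in DKO tumor, and 2.01% and 9.57% in SKO tumor. In the joint fit the set 1 log2 difference of DKO yBM minus that of set 2 passed for Mtor (-1.50, adjusted p = 0.0372, limma) and Igf2bp1 (-3.56, adjusted p = 0.0487), where 4.82% of all genes passed. Both were lost without any 1 of several libraries (adjusted p 0.0503 to 0.185), and without the DKO libraries of high Wwox (-1.72, adjusted p = 0.167, and -2.95, adjusted p = 0.446).

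Over both lists of other genes, 32 calls against control BM and these 2 made 34, of which 4 were kept when any 1 library was left out, Foxo1 and Foxo3 in set 1 DKO yBM, Igf2bp1 in set 2 DKO yBM and Stc1 in set 2 DKO BMT, and 30 were lost for at least 1 library. Without the DKO libraries of high Wwox, which leaves 1 library in DKO yBM of set 1 and 2 each in DKO BMT and DKO tumor, none of the 12 set 1 calls of other genes passed: 8 in DKO yBM (adjusted p 0.374 to 0.463, limma), 3 in DKO BMT (0.177 to 0.198) and 1 in DKO tumor (0.146). The 3 in DKO BMT, Ghr, Stc1 and Sgce, were also lost without the libraries of high Trp53 (adjusted p 0.0784 to 0.32). Of the 3 in SKO BMT, Stc2 and Mtor were lost without the libraries of low Wwox (adjusted p = 0.705 and 0.22) and Snrpn was kept (adjusted p = 0.00124).

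Of 22 other imprinted genes, listed because Igf2 and H19 are imprinted, 15 were tested in set 1 and 14 in set 2. In DKO yBM of set 1, 0 were higher and 4 lower: Ndn (log2 difference -2.34, adjusted p = 0.0214, limma), Plagl1 (-1.72), Snrpn (-1.48) and Airn (-1.08). Ndn, a paternally expressed gene of the Prader-Willi cluster, ranged from 0.617 to 3.61 TPM there, against 13.6, 18.6, 6.63 and 10.0 TPM in control BM, with no overlap. DKO BMT had 0 higher and 1 lower, Sgce (-1.23), and DKO tumor 1 higher and 0 lower, Slc38a4 (3.38). Of all tested genes, 1.67% were called higher and 6.14% lower in DKO yBM, 0.958% and 1.4% in DKO BMT, and 1.19% and 2.21% in DKO tumor.

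In set 2 the imprinted genes called in young marrow were Peg10 and Asb4, which lie in 1 cluster and were higher in DKO yBM and SKO yBM, with 2 higher and 0 lower of 14 in each. Of all tested genes, 9.34% were higher and 10.2% lower in DKO yBM, and 5.78% and 7.77% in SKO yBM. Each of these Peg10 and Asb4 calls was lost without at least 1 library. The median log2 difference of the 14 genes was -0.03 in DKO yBM and 0.67 in SKO yBM, against 0.07 and 0.24 for all genes. Peg10 was at 28.7, 40.9 and 5.49 TPM in DKO yBM and 25.8, 27.4 and 43.3 TPM in SKO yBM, against 2.75, 1.42 and 4.93 TPM in control BM, with log2 differences of 2.41 (adjusted p = 0.0394, limma) and 3.10 (adjusted p = 0.0133). Asb4 was at 15.5, 19.2 and 23.0 TPM in DKO yBM and 14.2, 16 and 26.9 TPM in SKO yBM, against 0.152, 1.27 and 3.64 TPM in control BM. DKO tumor had Dlk1 (4.46) and Peg10 (2.68) higher, SKO BMT had Snrpn lower (-1.89), and DKO BMT and SKO tumor had no call, with 4 and 1 of the 14 genes at an unadjusted p under 0.05 in limma, beside 26.9% and 23.9% of all genes. Of all tested genes, 7.71% were called higher in DKO tumor and 8.36% lower in SKO BMT. The Dlk1 call was lost without any 1 of the 6 libraries.

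**Figure D5:**
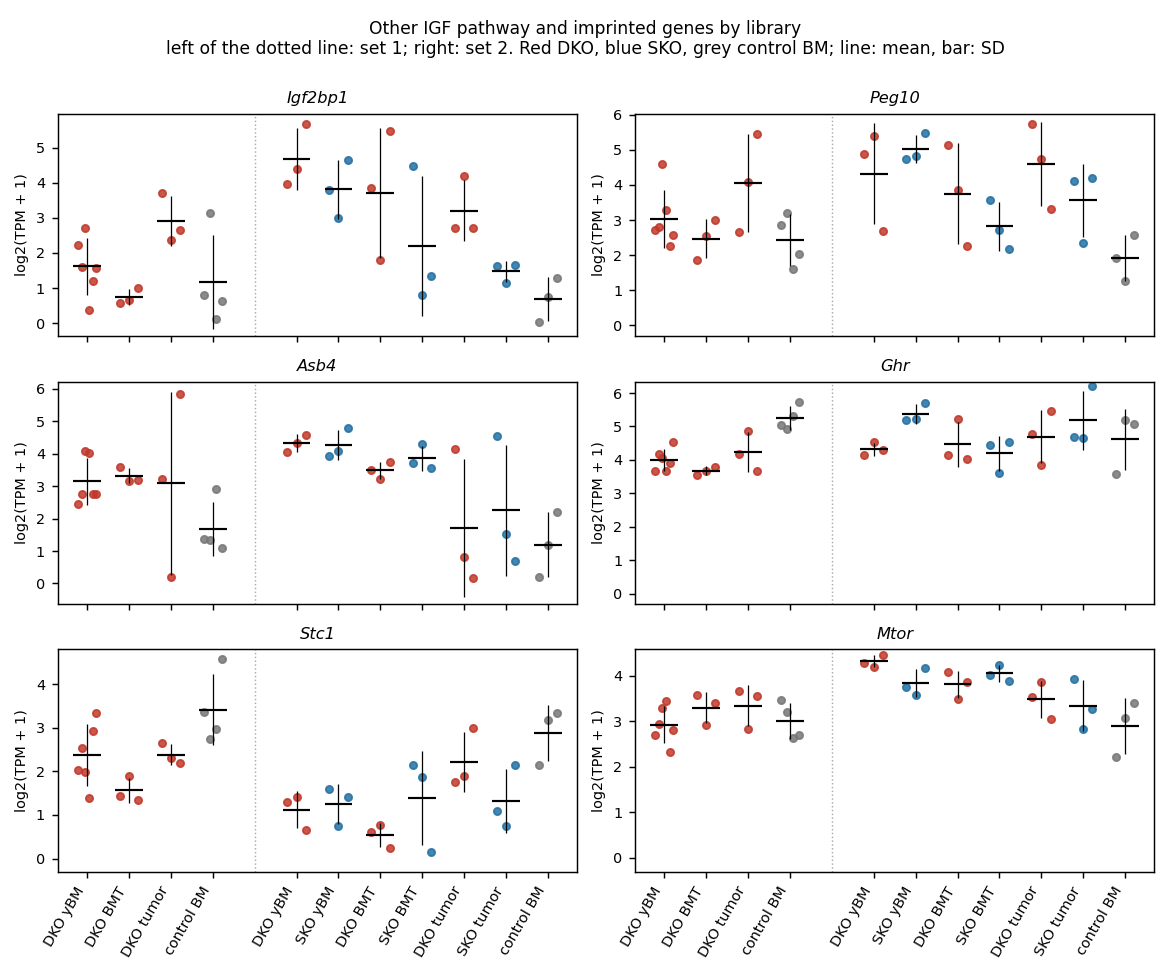
Levels of Igf2bp1, Peg10, Asb4, Ghr, Stc1 and Mtor as log2(TPM + 1) in each library (points), with the group mean (line) and SD (vertical bar), laid out and coloured like the plot of the ligands. Igf2bp1, Peg10 and Asb4 are above the set 2 controls in every yBM library of set 2, and Ghr is below the set 1 controls in every DKO yBM and DKO BMT library of set 1.

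Across the 37 libraries, levels of the 10 genes were correlated in log2(TPM + 1) after the mean of the gene in each set was taken off. This is a description only, since libraries share groups, sets and cell makeup. Igfbp2 with Igfbp6 had the highest Pearson r among the 45 pairs, 0.772, followed by H19 with Igfbp4 (0.745), Igfbp4 with Igfbp5 (0.719) and Igf1 with Igf2 (0.70). Igf2 with H19 had 0.463, and H19 with Igf1r 0.433. The genes whose pattern was most like that of Igf1 were Cd200r1 (r = 0.911) and Bcl2a1b (0.908), both known from leukocytes, and Il10rb (0.905).

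The pattern most like that of Igf2 was that of Myom1 (0.81), followed by Ackr4 and Scp2 (0.797 each), and that most like H19 was Vill (0.796). Igf1r was nearest to Parva (0.92), which links integrins to actin, Igfbp2 to the maternally expressed noncoding RNA Rian (0.874), and Igfbp6 to Thy1 (0.881), a stromal surface marker. Igfbp3 was nearest to Mfap4 (0.861), Igfbp4 to Sfrp1 (0.791), Igfbp5 to Itga9 (0.822) and Igfbp7 to Prss23 (0.891).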

How the data were processed

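RNA from cultured BM and tumor cells was poly-A selected and sequenced by the authors, who trimmed reads with Trim Galore (0.6.1 in the submitters' processing notes), checked them with FastQC, quantified them with salmon and used DESeq2 for their own tests. The build in those notes is mm39. The authors deposited TPM values per gene in 1 table, and TPM keeps no depth, so the precision that depth gives is unknown. Symbols were matched through mouse gene tables for 48246 of 51123 IDs, 2877 had none, and RefSeq sequences (GRCm38.p6) were used without coordinates for the data.

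The 3 control columns of set 2 were matched to their group only, and their numbers name columns. Genes at 1 TPM or more in at least 3 libraries of a fit were tested with limma 3.58.1 (R 4.3.3) on log2(TPM + 1), set by set (14404 and 14458 genes, 15654 in the joint fit), with Benjamini-Hochberg adjustment and a threshold of 0.05. The fits were tested on simulated data. All 10 genes passed the filter in both sets. The text names all 10, the genes called among 37 other pathway genes and 22 other imprinted genes, and the nearest genes by Pearson r. Members and lists were chosen with earlier results of these data known. Alternatives were a pseudocount of 0.1, no filter, median-ratio scaling, quantile normalization, a leukocyte covariate, fits of the compared groups alone, a replicate block, and leaving out libraries. Deviations of same-numbered libraries of DKO BMT and SKO BMT in set 2 had r = 0.293, 0.291 and 0.381, each above that of any other same-numbered libraries. In both groups library 2 had the highest leukocyte marker level (4.49 and 5.40). No label pairs these libraries, and whether the numbers mark a pair was not tested. The most alike libraries had r = 0.972.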

Additional observations from a re-analysis of the deposited data

Results flagged for a closer look

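In groups of 4 to 6 libraries, Dixon's test at the 95% level was run on TPM, not on the log2 scale of the other tests. It covered 20 sets of values, the 10 genes in DKO yBM and control BM of set 1, and 3 sets had an extreme library. The chance rate of about 1 in 20 assumes normally distributed values, so the flags on TPM cannot be set against it. Igfbp3 was at 18.9 TPM in DKO yBM 4 of set 1, and Igfbp6 at 14.5 TPM in the same library, in each case far above the other 5 DKO yBM libraries. Igfbp3 was at 63.0 TPM in control BM 2 of set 1, far above the other 3 controls. No member passed the joint test of a difference between the sets.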

How the results depend on the processing

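Of the 21 member calls, 18 were kept with median-ratio scaling, 20 with quantile normalization, 16 with a pseudocount of 0.1, 15 when only the groups compared were fitted, 11 with no filter and 5 with the leukocyte covariate, and 7 were kept when each library was left out in turn. The number of members called against control BM moved by more than 1.5 times as follows, and smaller moves are not listed. In set 1 DKO yBM (2 calls) it was 1 with a pseudocount of 0.1 or quantile normalization and 0 with no filter, median-ratio scaling, or without the DKO libraries of high Wwox, and 0 to 2 with 1 library left out. In set 1 DKO BMT (3) it was 1 with only the groups compared, 0 with no filter, without the DKO libraries of high Wwox or without the knockout libraries of high Trp53, and 0 to 1 with 1 library left out. In set 1 DKO tumor (1) it was 2 with a pseudocount of 0.1 or without the DKO libraries of high Wwox, 0 with only the groups compared or the leukocyte covariate, and 0 to 3 with 1 library left out. In set 2 it was 0 in all 6 comparisons with the leukocyte covariate. In DKO yBM (4) it was 7 with only the groups compared and 1 to 4 with 1 library left out, and in SKO yBM (2) it was 1 with a pseudocount of 0.1 or no filter and 1 to 1 with 1 library left out. In DKO BMT (2) it was 1 with only the groups compared and 1 to 2 with 1 library left out, and in SKO BMT (2) it was 1 with a pseudocount of 0.1 or no filter, 4 with either other scaling, 0 without the SKO libraries of low Wwox, a choice made after seeing the data, and 1 to 3 with 1 library left out. In DKO tumor (3) it was 2 to 2 with 1 library left out, and in SKO tumor (2) it was 1 with a pseudocount of 0.1, no filter or only the groups compared, and 1 to 3 with 1 library left out. In other comparisons with 0 calls it was 2 in set 2 DKO tumor minus DKO yBM with only those groups, and 1 for the yBM difference between the sets with median-ratio scaling or quantile normalization. With 1 library left out it was 0 to 1 for the yBM and BMT differences between the sets, for set 1 DKO tumor minus DKO yBM and for DKO minus SKO tumor.

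With the leukocyte covariate, 9 member differences turned positive: Igf1 0.25 in SKO yBM and 0.42 in SKO tumor, Igf2 0.76 in DKO yBM and 0.83 in SKO tumor, Igfbp2 1.14 in DKO yBM and 1.92 in SKO yBM, and Igfbp5 0.84 in DKO yBM, 0.15 in SKO BMT and 1.29 in DKO tumor. Igf2bp1 turned negative, at -0.086 in DKO yBM, -0.96 in SKO yBM and -0.43 in DKO BMT. The cause was not tested for any of these changes. With a replicate block, 0 members were called in all 3 set 1 comparisons with control BM, where the numbers were not shown to pair the libraries, and 20, 43 and 10 genes in all were called in DKO yBM, DKO BMT and DKO tumor. No replicate block was fitted for set 2 against control BM, because the numbers of its control columns could not be matched to samples. Control libraries come from wild-type marrow, so in neither set could a number pair a control with a knockout library of the same mouse. The DKO tumor group of set 2 could not be fitted without libraries of high Wwox, since all 3 were high.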
